A study of Mus musculus with 18 samples.

Results

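miR-204-5p and miR-211-5p (mmu-miR-204-5p and mmu-miR-211-5p in the count table) are 2 mature microRNAs that carry the same seed, the stretch of bases that pairs with target transcripts, and that are transcribed inside introns of 2 related ion channel genes, Trpm3 and Trpm1. They were taken by name from the miRNA entries of a small RNA count table, as 2 of 1978 mature mouse miRNAs, of which 1054 had at least 1 count. Both had counts, 18129 for miR-204-5p and 244 for miR-211-5p over 18 libraries. The pair was chosen on its raw counts in all 6 groups of libraries, so their levels and genotype differences are given as a description without a p-value.

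The libraries came from brains of 10-month-old wild-type (WT) mice and Atxn2-CAG100-KIN mice, labelled KIN, in which an expanded CAG repeat was knocked into Atxn2, the gene altered in spinocerebellar ataxia type 2. Magnetic beads were used to take microglia (anti-CD11b), astrocytes (anti-ACSA-2) and neurons (left after removal of non-neuronal and CD31-positive cells) in sequence from each brain. The 6 groups, WT and KIN of each fraction, held 3 libraries each, and no animal received a treatment. The mice were on a C57BL/6 background and were compared as littermates of the same sex, the knock-in mice being homozygous. The paper reports both male and female mutant-WT pairs among the mice sequenced, so each group held both sexes. Sex was not a term in the fits.

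Library totals ran from 3144427 to 4316748 counts in the glial fractions and from 1211118 to 2427384 in the neuron fraction. Mature miRNAs made up 5.05 to 10.3% of the counts in the glial fractions and 0.964 to 2.13% in the neuron fraction, so levels are given below both as counts per 1000000 of the library total (CPM) and on the scale of mature miRNA counts alone. In WT libraries the marker lists were highest in the fraction they name, with 10 astrocyte markers summing to 344 to 413 CPM in astrocytes and 10 microglia markers to 123 to 168 CPM in microglia. The neuron fraction departed from its label. Its 9 neuron markers summed to 29.1 to 49.5 CPM in WT libraries. Among WT fractions Map2, Tubb3, Gad1 and Stmn2 were highest there, at means of 13.6, 7.67, 3.86 and 7.42 CPM. Snap25, Syt1, Rbfox3 (1 count), Slc17a7 and Nefl were not. The 17 markers of choroid plexus epithelium, the tissue that secretes cerebrospinal fluid, summed to 448 to 1084 CPM there. Ttr and Enpp2 held the most counts of these, at means of 404 and 219 CPM. The 6 endothelial markers also exceeded the neuron markers in the WT neuron libraries, at 58.3 to 74.3 CPM. Most of this was Pecam1, the gene of CD31, with a mean of 60.5 CPM. In WT microglia the endothelial sums ran from 30.2 to 126 CPM. The neuronal miRNA miR-124-3p averaged less in the WT neuron fraction (103 CPM) than in astrocytes (1543 CPM), and microglia had 75.9 CPM of it. These miRNA means also carry the low miRNA share of the neuron fraction. The marker gene lists are fragments of transcripts in small RNA libraries, and fewer cells of a type cannot be told apart from less RNA per cell. The paper assessed purity by other assays, RT-qPCR and RNA sequencing of marker genes and staining of cultured cells from pups. It judged the neuron fraction to be largely pure and says that the unlabelled cells also include endothelial cells.

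A microRNA is cut from a hairpin precursor into a 5p and a 3p strand, of which usually the more abundant one is loaded into an Argonaute protein and lowers the output of transcripts that match its seed. miR-204 is known as an abundant miRNA of the choroid plexus, the retinal pigment epithelium and the lens, where Trpm3 is also active. miR-211 is best known from melanocytes and the retina, where its host gene Trpm1 is transcribed under the control of the pigment cell regulator Mitf.

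The mature sequences show how close the pair is, with the seed (bases 2 to 8 from the 5′ end) in capitals. They matched the RefSeq entries (mouse build GRCm38.p6) for all 4 strands.
miR-204-5p: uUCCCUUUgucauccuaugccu
miR-211-5p: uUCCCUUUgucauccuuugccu
miR-204-3p: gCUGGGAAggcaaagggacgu
miR-211-3p: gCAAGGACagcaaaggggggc
The 5p strands are both 22 bases long and differed at 1 position, A17U, counted from 1 at the 5′ end of miR-204-5p. The 3p strands have different seeds. The seed of the pair stood in 1 other mature miRNA of the table, mmu-miR-7670-3p, which held 2 counts in all 18 libraries together, so miR-204-5p and miR-211-5p carried nearly all counts with this seed.

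The precursors are shown with both arms in capitals, because hairpin entries of the table are described beside the mature strands.
Mir204 hairpin: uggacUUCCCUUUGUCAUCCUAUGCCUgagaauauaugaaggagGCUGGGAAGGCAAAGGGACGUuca
Mir211 hairpin: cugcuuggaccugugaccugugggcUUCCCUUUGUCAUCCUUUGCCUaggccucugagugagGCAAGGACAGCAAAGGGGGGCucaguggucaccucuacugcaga
In GRCm39 the Mir204 gene lies on chromosome 19 from 22727969 to 22728036 on the plus strand, with miR-204-5p at 22727974 to 22727995. It is inside Trpm3 (22116410 to 22972774, plus strand), in an intron of 34 of the 40 annotated transcripts and in an exon of 0, and in intron 7 of the canonical Trpm3-206. Mir211 lies on chromosome 7 from 63855554 to 63855659 on the plus strand, with miR-211-5p at 63855579 to 63855600. It is inside Trpm1 (63803583 to 63922019, plus strand), in an intron of 23 of 34 annotated transcripts and in an exon of 0.

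miR-204-5p was highest in astrocytes on the scale of the library total. WT astrocytes held 1603, 2747 and 1735 counts in replicates 1, 2 and 3, which is 576 ± 99.6 CPM (mean ± SD, n = 3). KIN astrocytes held 2376, 1494 and 1904 counts, or 539.7 ± 139 CPM. The 2 genotypes overlapped in this fraction, and each astrocyte library lay above each microglia and neuron library.
WT microglia held 610, 654 and 481 counts of miR-204-5p, or 165 ± 30.0 CPM, and KIN microglia held 889, 714 and 1033 counts, or 229 ± 59.3 CPM. KIN microglia replicate 2, at 165 CPM, fell inside the WT range of 131 to 188 CPM, so the genotypes overlapped here too.
The WT neuron libraries were uneven, with 45, 460 and 54 counts, or 37.2, 235 and 35.3 CPM in replicates 1, 2 and 3. KIN neurons held 590, 413 and 327 counts, or 186 ± 60.0 CPM, so that WT replicate 2 lay inside the KIN range and the other two WT libraries lay below it. Over the 6 groups the order was WT astrocytes, KIN astrocytes, KIN microglia, KIN neurons, WT microglia and WT neurons. In this order the step from KIN astrocytes to KIN microglia was the only one between neighbours whose libraries did not overlap.

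miR-211-5p, at 244 counts in all, had its highest level in another fraction. KIN microglia held 45, 49 and 69 counts, or 13.9 ± 2.38 CPM, whereas WT microglia held 7, 6 and 8 counts, or 1.97 ± 0.229 CPM. The lowest KIN library, at 11.4 CPM (exact 95% binomial interval 8.40 to 15.0), was above the highest WT library, at 2.18 CPM. Such intervals cover counting error only. In KIN neurons miR-211-5p held 15, 13 and 10 counts, or 5.29 ± 1.14 CPM, and in WT neurons 0, 10 and 1 counts, so that WT replicate 2, at 5.11 CPM, again lay inside the KIN range.
The astrocyte libraries were near the limit of detection, with 1, 1 and 3 counts in WT and 5, 1 and 0 in KIN. The library with 0 counts allows up to 0.806 CPM, taken as 3 counts at its depth, and no fold between genotypes is given for this fraction. In the order of the group means, KIN microglia stood above KIN neurons and KIN neurons above WT microglia without overlap, while WT microglia, WT neurons, KIN astrocytes and WT astrocytes each overlapped with the next.

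**Figure D1:**
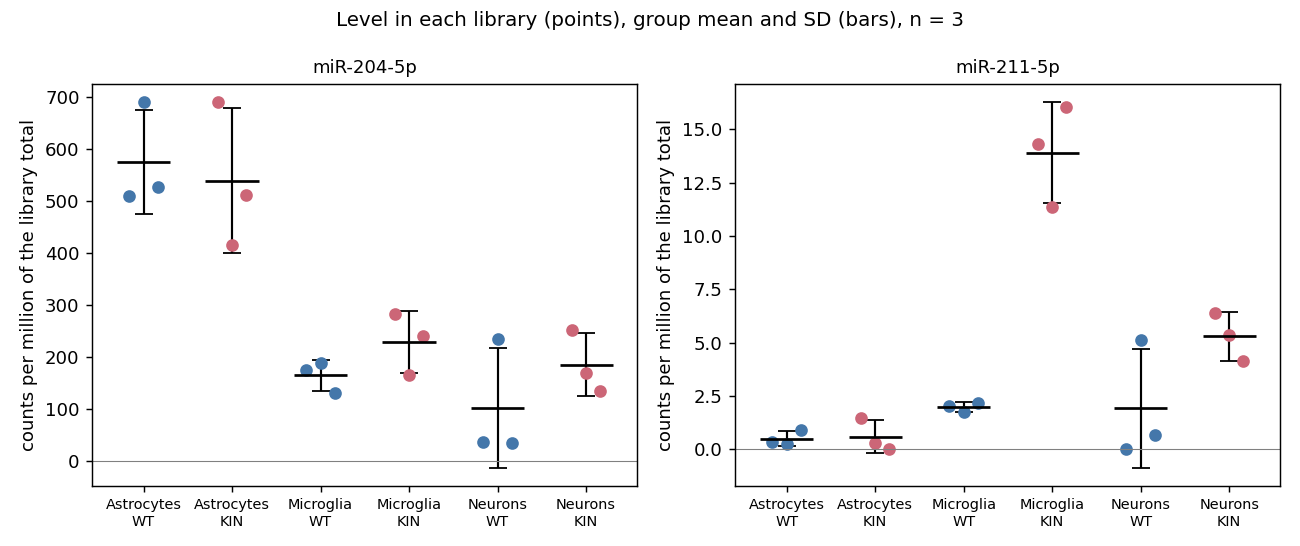
Level of miR-204-5p (left) and miR-211-5p (right) in CPM of the library total, for the 6 groups on the horizontal axis. Points are libraries, horizontal lines means and vertical bars SD (n = 3), with WT in blue and KIN in red. miR-204-5p is highest in astrocytes, at means of 576 and 539.7, and miR-211-5p in KIN microglia, at 13.9.

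The share of miR-211-5p among the counts of both miRNAs shows the same contrast without any scaling between libraries. KIN microglia held 4.82, 6.42 and 6.26% miR-211-5p, and WT microglia 1.13, 0.909 and 1.64%. The exact 95% intervals, which cover counting error within a library and not the spread between samples, ran from 3.54 to 8.40% over the KIN libraries and from 0.334 to 3.20% over the WT libraries. KIN neurons lay at 2.48, 3.05 and 2.97%, and WT neurons at 0, 2.13 and 1.82%, the first of these resting on 45 counts with an upper bound of 7.87%.
Astrocytes, the fraction with the most miR-204-5p, held 0.0364 to 0.173% in WT and 0 to 0.210% in KIN. A full-length read of miR-204-5p reaches 20 of 22 alignment points on miR-211-5p, against a minimum of 19.8, so the stated mapping allows a read to be counted under the other member where its own entry is not preferred. How many reads were counted under the other member was not tested.

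**Figure D2:**
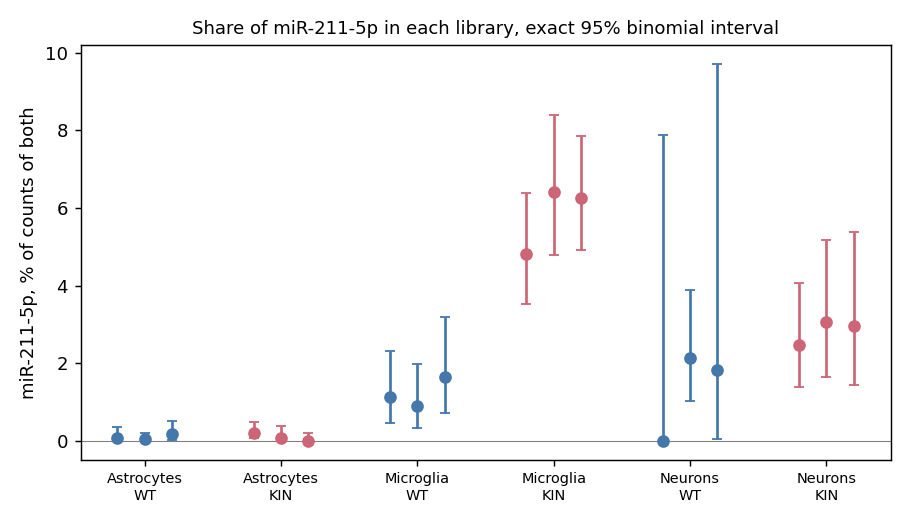
miR-211-5p as a percentage of the counts of miR-204-5p and miR-211-5p together, for each library (points) with its exact 95% binomial interval (bars), by group. The KIN microglia libraries sit between 4.82 and 6.42%, above every other library, and the astrocyte libraries at or below 0.210%.

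KIN was then compared with WT in each fraction, in a fit across all features of that fraction (edgeR quasi-likelihood). A feature counted as called if its adjusted p did not exceed 0.05 and it changed by 1 or more on the log2 scale in either direction. In microglia 215 of 4940 features tested were called, which is 4.35%, and 1.42% were called higher. miR-211-5p had a log2 fold change of 3.03 ± 0.35 (SE) and miR-204-5p one of 0.70 ± 0.30. The pair was chosen with this contrast known, so no test is given for either. miR-211-5p had the highest fold change of the 382 mature miRNAs tested in microglia, whose median was 0.46, and the sixth highest of all 4940 features, whose median was −0.11. Each KIN library lay above each WT library, as was so for 8.12% of all features.
In neurons the fold changes were 0.86 ± 0.66 for miR-204-5p and 1.26 ± 0.79 for miR-211-5p, beside a median of 0.01 over 217 mature miRNAs. Of 4535 features 0 were called in neurons (0%) by edgeR and 0 by DESeq2, with 197 and 124 at an unadjusted p under 0.05. Without WT replicate 2 the neuron values were 2.30 and 3.62. That library also held 85.9 CPM of 7 oligodendrocyte markers, against 8.26 and 10.5 CPM in the other WT neuron libraries, and 1084 CPM of choroid plexus markers, against 585 and 448. The part of these markers in the neuron values was not tested.
In astrocytes, where 466 of 5694 features were called (8.18%), miR-204-5p stood at 0.02 ± 0.19, below the median of 0.58 over 418 mature miRNAs, and miR-211-5p had too few counts to be fitted.

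**Figure D3:**
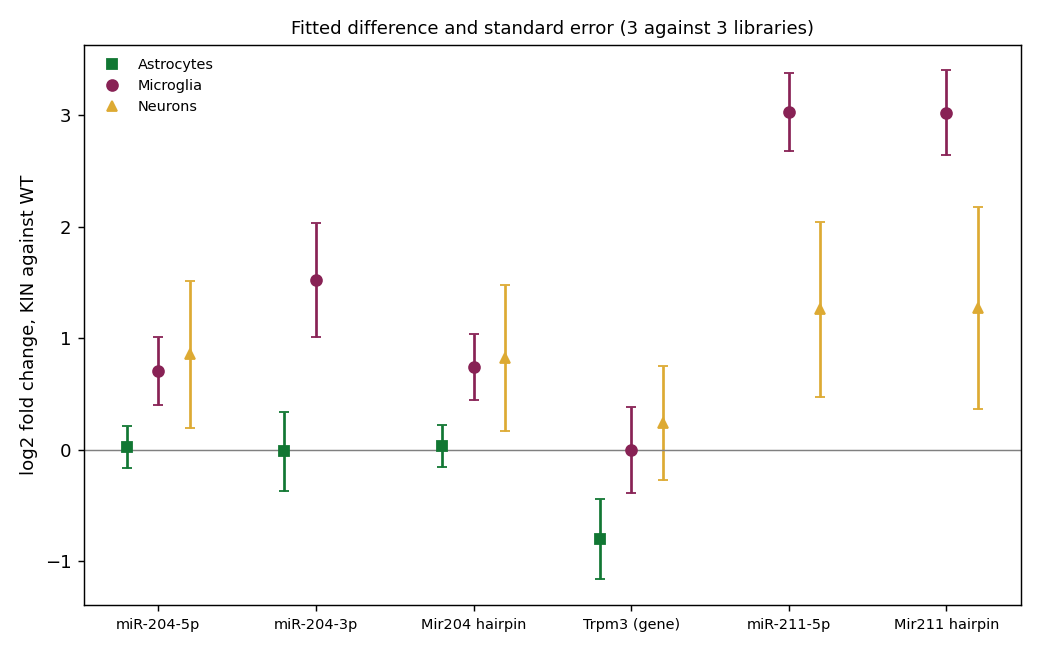
Fitted log2 fold change of KIN against WT (points) with its standard error (bars) for the strands, hairpins and host gene of both miRNAs, in astrocytes (squares), microglia (circles) and neurons (triangles), each from 3 against 3 libraries. In microglia miR-211-5p and its hairpin lie at 3.03 and 3.02, and Trpm3 at 0.00. Features with too few counts in a fraction have no point.

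Relative to other mature miRNAs the order of the groups differed for miR-204-5p. Scaled to counts per 1000000 mature miRNA counts, WT astrocytes held 10095, 8310 and 8652 of miR-204-5p, and KIN astrocytes 6677, 4561 and 6070, so that each KIN library lay below each WT library, as was so for 18.4% of the 418 mature miRNAs tested. With mature miRNAs alone in the fit the astrocyte log2 fold change of miR-204-5p was −0.69, against 0.02 over all features. The direction of this value therefore depends on the scaling.
On the same scale miR-204-5p in WT neurons stood at 3854, 12175 and 3267 for replicates 1, 2 and 3, and at 8404 to 12804 in KIN neurons. The KIN neuron libraries thus lay within or above the WT astrocyte range. WT microglia (2189 to 3703) and KIN microglia (1956 to 4818) overlapped and had the lowest means. For miR-211-5p the KIN microglia libraries stood at 134 to 244 and the WT microglia libraries at 34.0 to 39.0. KIN neurons were highest on this scale, at 257 to 403, and did not overlap with KIN microglia.

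**Figure D4:**
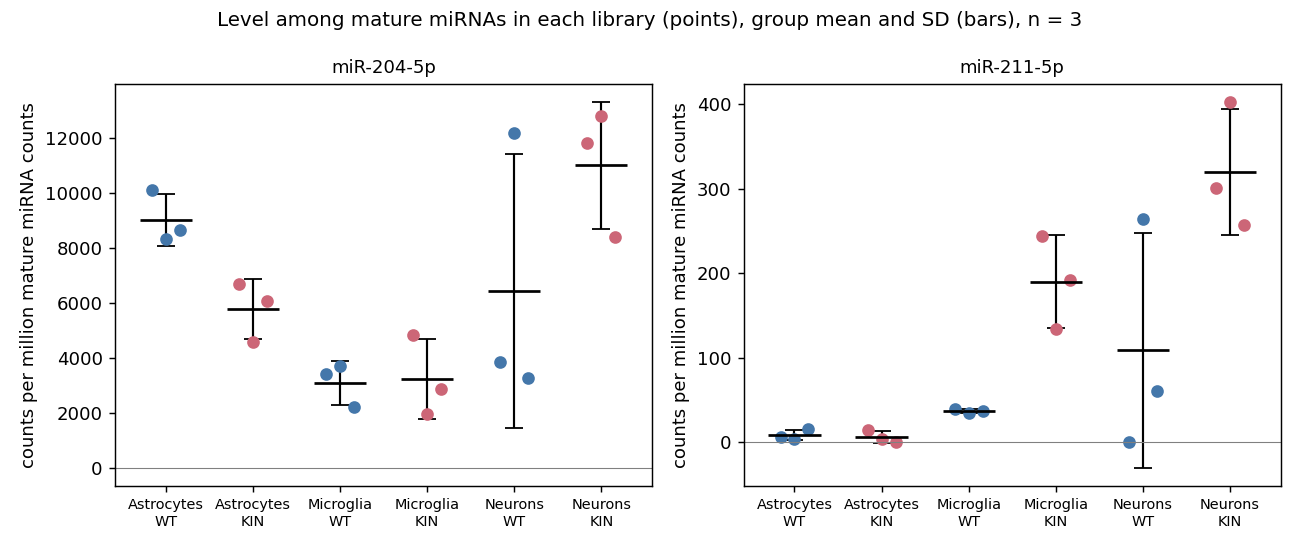
Level of miR-204-5p (left) and miR-211-5p (right) in counts per 1000000 mature miRNA counts in each library (points), with group means (lines) and SD (bars, n = 3). On this scale KIN astrocytes (4561 to 6677) lie below WT astrocytes (8310 to 10095) for miR-204-5p, and KIN neurons (257 to 403) are highest for miR-211-5p.

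The other products of the 2 loci were described next. The 3p strand of miR-204 held 158 counts over 18 libraries and that of miR-211 held 0 in each. Taken as 3 counts, this allows up to 0.695 to 2.48 CPM per library. In microglia miR-204-3p held 3, 3 and 3 counts in WT and 8, 8 and 9 in KIN. The KIN libraries lay above the WT libraries, and the ratio of the summed CPM, from 25 against 9 counts, was 2.51 with an exact 95% counting interval of 1.13 to 6.10. The fitted log2 fold change was 1.53 ± 0.51 and did not pass the test (edgeR adjusted p = 0.104, range over the other settings and left-out libraries 0.0692 to 0.580). In astrocytes miR-204-3p held 12, 25 and 18 counts in WT and 19, 14 and 18 in KIN (log2 fold change −0.01 ± 0.35, edgeR adjusted p = 0.980). Both strands are cut from the same hairpin, so the 3p strand is no separate evidence for the locus.
The hairpin entries followed the mature strands. The Mir204 hairpin held 15683 counts, or 85.8 per 100 counts of its 2 mature strands, and this figure stayed within 80.4 to 95.6 in all 18 libraries. A comparison of its counts with the mature counts over libraries gave a chi-square of 4.40 at 17 degrees of freedom, less than separate reads would vary. The Mir211 hairpin held 170 counts, 69.7 per 100 mature counts, with 31, 36 and 51 in KIN microglia and 5, 5 and 5 in WT microglia. Only 3 libraries held at least 20 mature counts of miR-211. The methods state that reads went on to a later reference only if an earlier one had not taken them. Whether reads were counted under both entries is therefore not known. In microglia the log2 fold changes of the Mir211 and Mir204 hairpins were 3.02 ± 0.38 and 0.74 ± 0.30. They are not taken as measurements separate from those of the 5p strands.

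Of the host genes, Trpm3 was not called in microglia and Trpm1 was hardly counted at all. Trpm3, a cation channel gated by heat and by the neurosteroid pregnenolone sulfate, held 23, 12 and 27 counts in WT microglia and 9, 28 and 20 in KIN, over 24 transcripts summed. Its log2 fold change was −0.00 ± 0.38 (edgeR adjusted p = 0.998) and the libraries of the 2 genotypes overlapped. Trpm1, a channel of retinal bipolar cells and melanocytes, held 1 count in the WT and 1 in the KIN microglia libraries and 11 counts over all 18 libraries. Its level was thus not measurable at this depth.
In astrocytes Trpm3 held 47, 50 and 70 counts in WT and 42, 20 and 23 in KIN, or 16.3 ± 4.49 and 7.99 ± 3.67 CPM. Each KIN library was below each WT library, as was so for 26.9% of 6744 genes, but the log2 fold change of −0.80 ± 0.36 did not pass the test (edgeR adjusted p = 0.148, and 0.0474 without WT replicate 2 at a fold change still under the limit). Of the genes tested in astrocytes 8.57% were called and 6.33% were called lower, and the 10 astrocyte markers summed to 102 to 136 CPM in KIN against 344 to 413 in WT, with 6 of 10 called lower. The part of this in the Trpm3 value was not tested. In neurons Trpm3 was at 0.24 ± 0.51 (edgeR adjusted p = 0.962).

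The fractions of WT mice were compared with each other for the products the selection did not use. Here too miR-204-3p is cut from the same hairpin as the selected miR-204-5p. Its tests between fractions are therefore no separate evidence for the locus. miR-204-3p was lower in WT microglia than in WT astrocytes, at −2.48 ± 0.51 on the log2 scale (edgeR adjusted p = 0.00391), and each microglia library lay below each astrocyte library. In this comparison 31.5% of 6397 features were called, and 29.2% had all microglia libraries below all astrocyte libraries. For miR-204-3p in WT neurons, at 0, 4 and 2 counts, the value against WT astrocytes was −2.23 ± 0.70 (edgeR adjusted p = 0.0424), in a comparison with 28.7% of 5916 features called. This call was lost on library totals (adjusted p = 0.0526) and without any of 5 of the 6 libraries, the exception being WT neuron replicate 2 (edgeR adjusted p from 0.0623 to 0.106 without WT astrocyte replicate 1, 2 or 3 or WT neuron replicate 1 or 3). miR-204-5p stood at −1.67 ± 0.27 in WT microglia and −2.67 ± 0.74 in WT neurons against WT astrocytes, the latter beside a median of −2.66 over 362 mature miRNAs. Between WT neurons and WT microglia, where 28.0% of 5166 features were called, it stood at −0.92 ± 0.67 and miR-211-5p at −0.06 ± 0.88, beside a median of −2.56 over 343 mature miRNAs.
Trpm3 had its highest level where the choroid plexus markers were highest. WT neurons held 27.2, 67.0 and 19.0 CPM of Trpm3 and KIN neurons 36.3, 33.0 and 63.9 CPM. Against WT microglia, at 3.45 to 7.36 CPM, the WT neurons were higher in Trpm3, by 2.32 on the log2 scale (SE 0.56, edgeR adjusted p = 0.00964), where 25.3% of 6169 genes were called. Against WT astrocytes they were at 0.98 ± 0.54 (edgeR adjusted p = 0.195, with 23.9% of 7109 genes called), and WT neuron replicates 1 and 2, but not 3, lay above all WT astrocyte libraries.
WT microglia were lower than WT astrocytes in Trpm3, at −1.23 ± 0.41 on the log2 scale (edgeR adjusted p = 0.0292), in a comparison with 28.9% of 7575 genes called. The call was lost without WT astrocyte replicate 3 (adjusted p = 0.116) and without WT microglia replicate 1 (adjusted p = 0.0919). Trpm3-218, the transcript with the most counts (372), held 50 of the 62 Trpm3 counts in WT microglia and 71 of 167 in WT astrocytes. On its own it was not called between them (−0.47 ± 0.41, edgeR adjusted p = 0.381). Without this transcript, a choice made after its counts were seen, the microglia value was −2.73 ± 0.52, from 5, 4 and 3 counts in WT microglia. Its removal takes the larger share from microglia, so a larger difference follows by construction and no test is given.

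The choroid plexus list was set beside the pair because miR-204 is abundant in that tissue. Within the neuron fraction the 3 WT libraries held 585, 1084 and 448 CPM of the 17 markers and the 3 KIN libraries 636, 740.3 and 1116, overlapping between genotypes. WT replicate 2 was highest of the WT libraries for these markers, for Trpm3, for miR-204-5p and for miR-211-5p. KIN replicate 3 was highest of the KIN libraries for the markers and for Trpm3, but lowest for miR-204-5p (135 CPM) and for miR-211-5p (4.12 CPM). Transthyretin (Ttr), the main secreted protein of the tissue, stood at 404 ± 174 CPM in WT and 435 ± 106 CPM in KIN neurons (log2 fold change 0.13 ± 0.36, edgeR adjusted p = 0.971). Of 14 markers tested 0 were called, in a fit with 0 of 5575 genes called, so this count does not show equal levels.
In microglia the choroid plexus markers summed to 23.9 to 36.6 CPM in WT and 16.8 to 40.3 CPM in KIN. The sums of astrocyte markers there lay lower in KIN (2.08 to 3.18 CPM) than in WT (4.61 to 13.0 CPM). So did those of the 9 neuron markers (0.232 to 1.85 against 2.59 to 15.0 CPM) and the 7 oligodendrocyte markers (1.59 to 2.78 against 6.62 to 8.45 CPM). Every KIN library lay below every WT library for 18.5% of the 4940 features tested in microglia. These sums rest on few counts, such as 16 for astrocyte and 9 for neuron markers in WT microglia replicate 2. The 6 pigment cell genes summed to 0 to 1.40 CPM in KIN and 0.863 to 3.00 CPM in WT microglia, with Mlana and Tyrp1 at 0 in all libraries and Mitf at 5 counts in KIN and 10 in WT. The part of other cells in the miR-211-5p value was not tested.
Microglia markers themselves summed to 77.5 to 109 CPM in KIN and 123 to 168 CPM in WT, with 1 of 10 called beside 4.69% of all genes, the fractalkine receptor gene Cx3cr1 (log2 fold change −1.13 ± 0.27, edgeR adjusted p = 0.0384). The Cx3cr1 call was lost without WT replicate 1 or 3 or KIN replicate 2 or 3 (adjusted p from 0.134 to 0.181) and with a replicate block (edgeR adjusted p = 0.115). The myeloid miRNA miR-142a-3p was at 2485 ± 185 CPM in WT and 4057 ± 1285 CPM in KIN microglia (log2 fold change 0.91 ± 0.22, edgeR adjusted p = 0.0473, below the fold needed for a call). In KIN neurons, where miR-211-5p was also found, miR-142a-3p held 143 to 296 CPM and in WT neurons 29.7 to 163 CPM. In astrocytes, where miR-211-5p was near the limit of detection, miR-142a-3p was called higher in KIN (1.96 ± 0.33, edgeR adjusted p = 0.00975), beside 8.18% of features called. The other myeloid miRNA of the list, miR-223-3p, was at 0.27 ± 0.25 in microglia (edgeR adjusted p = 0.575). In neurons it was at −0.42 ± 0.71 (edgeR adjusted p = 0.943).

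**Figure D5:**
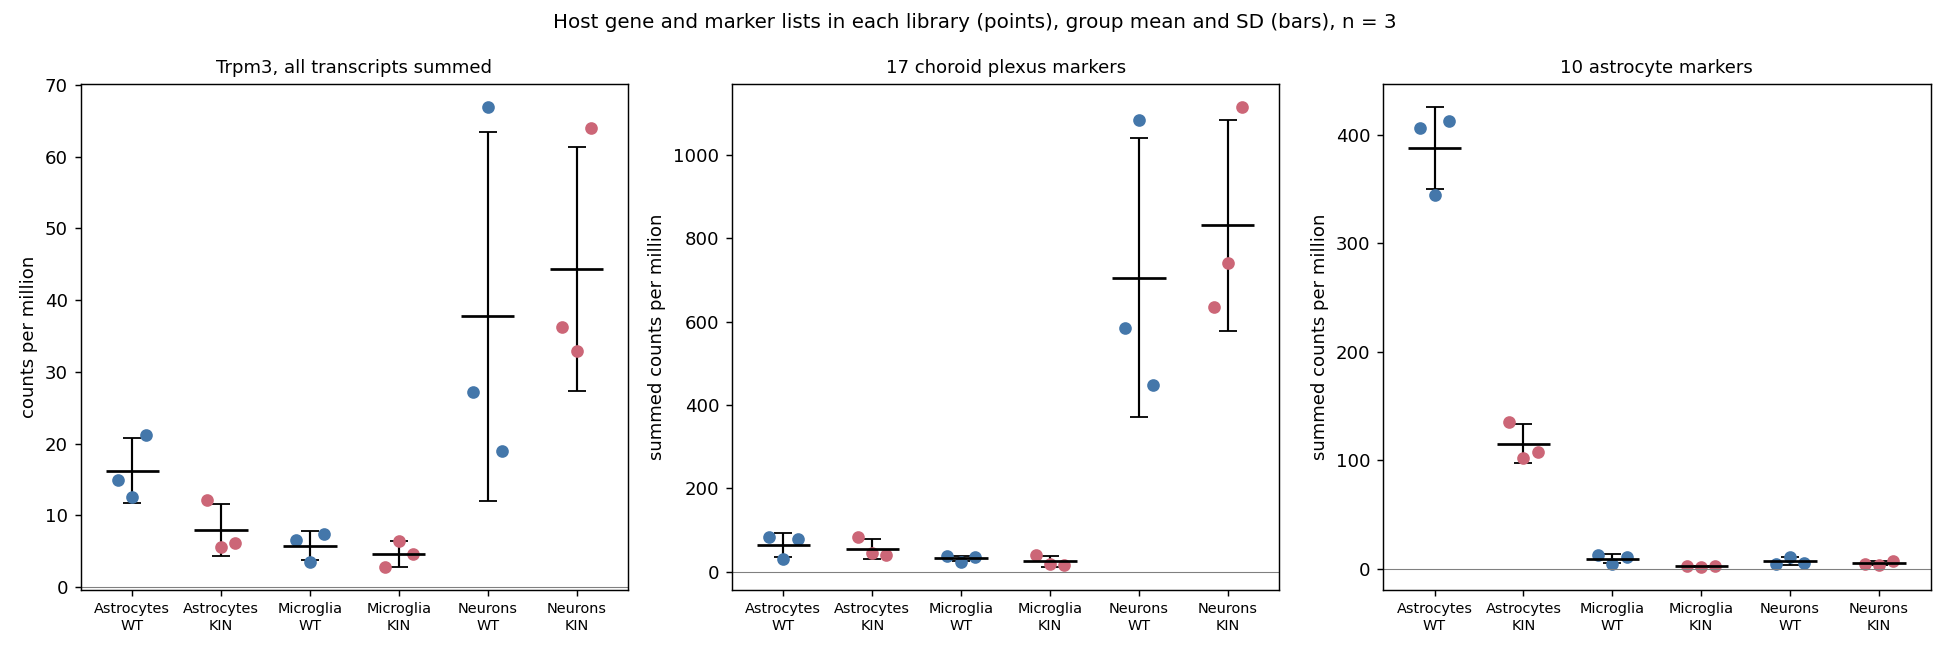
Trpm3 (left), the sum of 17 choroid plexus markers (middle) and the sum of 10 astrocyte markers (right) in CPM of the library total, for each library (points) with group means (lines) and SD (bars, n = 3). Trpm3 and the choroid plexus markers (448 to 1116 in neurons) are highest in the neuron fraction, and astrocyte markers in WT astrocytes.

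Genes described as targets of miR-204 or miR-211 were counted as a list of 11, all with counts. In microglia, 5 were tested and 0 were called (4.69% of 5603 genes were called in either direction), with a median log2 fold change of −0.47 beside −0.18 over all genes. The 2 with the most counts there were Tgfbr2, a receptor of transforming growth factor beta, at −0.12 ± 0.40 (edgeR adjusted p = 0.899), and Bcl2, a survival factor, at −0.47 ± 0.47 (edgeR adjusted p = 0.600). In neurons 0 of 5 were called, at a median of 0.12 beside −0.11, in a fit with 0 of 5575 genes called by edgeR and 230 at an unadjusted p under 0.05. In astrocytes, where 8.57% of all genes were called and 6.33% were called lower, 1 of 4 was called lower, Ntrk2, which encodes the receptor of brain-derived neurotrophic factor (300 counts in WT and 116 in KIN over 3 libraries each, log2 fold change −1.20 ± 0.28, edgeR adjusted p = 0.0224). That call held without WT replicate 2 and was lost without any other library (adjusted p from 0.0620 to 0.102), and the part of the lower astrocyte markers in it was not tested.
The miRNA processing genes, among them Drosha, Dgcr8 and Dicer1 for the cuts and Ago1 to Ago4 for loading, formed a list of 9. Of them 0 of 6 tested were called in astrocytes, 0 of 5 in microglia and 0 of 4 in neurons, beside 8.57, 4.69 and 0% of all genes, so that lists of this size would hold few or no calls at these shares. Dgcr8, the one with the most counts, was at −0.18 ± 0.34 in astrocytes (edgeR adjusted p = 0.745), 0.24 ± 0.34 in microglia (edgeR adjusted p = 0.736) and 0.10 ± 0.44 in neurons (edgeR adjusted p = 0.982).

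The mature miRNAs whose level over the 18 libraries was most like that of each member were listed by Pearson correlation of log2(CPM + 1), among 375 miRNAs with at least 5 counts in at least 6 libraries. For miR-204-5p these were miR-151-5p (r = 0.880), miR-204-3p (0.869), let-7e-5p (0.854), miR-219b-3p (0.852) and miR-181b-5p (0.852). For miR-211-5p they were miR-155-5p (0.801), miR-142a-3p (0.756), miR-142a-5p (0.740), miR-130b-3p (0.729) and miR-18a-5p (0.729). Between the members r was −0.0711. All libraries share the 3 fractions, whose differences set most of these values, and the libraries of a fraction share its depth.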

How the data were processed

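Small RNA from TRIzol extracts of 18 libraries was sequenced with the GenXPro kit, whose adapters carry molecular identifiers; whether duplicates were collapsed is not given in the sources used here. The deposited values used were raw counts per feature. According to the labels and the methods, the authors trimmed reads with Cutadapt 4.6 (minimum length 20) and aligned them with Bowtie2 2.4.4 in local mode to mature miRNAs, tRNAs, piRNAs, Ensembl non-coding RNAs and cDNAs in turn (mm39, with a minimum score of 0.9 of the read length for mature miRNAs and the sensitive preset for the other references), and counted with HTSeq 2.0.2 without regard to strand, so sense and antisense reads cannot be told apart. The authors' comparison columns (fold changes and p-values), their pooled means and 36 other columns of normalised values per library were not used.

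Counts were fitted with edgeR 4.0.16 (quasi-likelihood, TMM factors, Benjamini-Hochberg adjustment) within each fraction and between pairs of WT fractions, for features that reached 5 counts in 2 or more libraries of the fit. Calls required an adjusted p not above 0.05 together with a log2 change of 1 or more in size. For genes, Ensembl transcripts of the same gene name were summed. The scripts were tested on simulated data. The members and all gene lists were chosen with earlier results of these data known. Named genes were both members, their other strands, hairpins and hosts, list genes that were called or had the most counts, and the 5 miRNAs most like each member. Alternatives were DESeq2 1.42.0 and its size factors, library totals, mature miRNAs alone, no filter, one fit of all 18 libraries, a replicate block and leaving out each library in turn. The paper reports 3 mice per genotype for the fractions, but the labels do not tie replicate numbers to brains. Same-numbered libraries of different fractions may come from the same brain. The p-values measure only the spread between these libraries. Same-numbered libraries deviated together between WT microglia and WT astrocytes (correlations 0.107 to 0.448) and between WT neurons and WT astrocytes (0.225 to 0.436), a pairing seen in the data only. Depth was 1211118 to 4316748 counts per library, so that 3 counts, the limit that a count of 0 allows, were 0.695 to 2.48 CPM. Coordinates are from GRCm39 (GENCODE vM39).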

Additional observations from a re-analysis of the deposited data

How the results depend on the processing

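Of 447 alternative values for 48 results, 381 kept the call of the reported value or, where no test was given, stayed within its spread. For counts of calls this meant staying near the reported count. In 0 cases was the direction of a called value reversed. Changes of sign in values that were not called do not enter this count. An example is miR-204-5p in astrocytes, at 0.02 over all features and −0.69 with mature miRNAs alone. The cause of the changes below was not tested unless fewer genes or libraries entered by construction. With mature miRNAs alone, the KIN against WT log2 fold change of miR-204-5p was −0.69 in astrocytes and 0.33 in microglia, and that of miR-211-5p in microglia was 2.61 (2.79 on library totals). miR-204-3p in WT neurons against WT astrocytes was −2.03 on library totals, where its call was lost. Features called in astrocytes numbered 466, against 32 of 418 with mature miRNAs alone and 159 in one fit of 18 libraries. In microglia they numbered 215, against 67 with mature miRNAs alone, 378 by DESeq2, 426 without a filter, 334 in one fit and 49 with a replicate block. In neurons 0 became 2 with mature miRNAs alone and 75 without a filter. Of the list genes called in microglia, 2 became 1 on library totals and 0 with the block. Library totals moved the share of higher calls from 21.9 to 11.8% in astrocytes and from 32.6 to 19.3% in microglia, and the median of all features from −0.19 to −0.31 and from −0.11 to −0.33.

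Leaving out 1 library gave log2 fold changes of 0.48 to 2.30 for miR-204-5p and 0.81 to 3.62 for miR-211-5p in neurons, both highest without WT replicate 2. In WT microglia against WT astrocytes, miR-204-5p ranged from −1.93 to −1.30, miR-211-5p from 1.89 to 2.79 and Trpm3 from −1.46 to −1.09. The miR-211-5p range rests on 1, 1 and 3 counts in WT astrocytes, near the limit of detection, so its size is uncertain. In WT neurons against WT astrocytes, miR-204-5p ranged from −4.19 to −2.14 and miR-204-3p from −2.97 to −1.71. In WT neurons against WT microglia, miR-204-5p ranged from −2.30 to −0.49 and miR-211-5p from −2.37 to 0.44. Features called ranged from 41 to 1527 in astrocytes (highest without WT replicate 2), from 0 (without WT replicate 1) to 940 (without WT replicate 2) in microglia and from 0 to 52 in neurons, and list genes called from 3 to 13 in astrocytes and 0 to 9 in microglia. miR-211-5p in microglia stayed at 2.91 to 3.21.

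With the replicate block the log2 fold change of miR-211-5p in microglia was 3.02 and that of miR-204-5p in neurons 1.42, and features called were 691, 49 and 0 in astrocytes, microglia and neurons. In these comparisons the correlations of same-numbered libraries were 0.0731 to 0.203, −0.306 to 0.296 and −0.389 to −0.0208. Between WT neurons and WT microglia they were 0.0350 to 0.351. They were mixed in microglia and negative in neurons. In astrocytes and between WT neurons and WT microglia all were positive but some were weak, so a pairing there is uncertain. In both WT comparisons with astrocytes the block changed no call of a product or host described here. Depth limited miR-211-5p in astrocytes, Trpm1 and miR-211-3p, which were at or near the limit that a count of 0 allows.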
